A study of Mus musculus with 8 samples.

Results

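The collagen genes are the rows of the count table whose symbol is Col, a number, the letter a and a number, such as Col1a1. There were 44 of them among 30419 rows, for 27 collagen types. A row was tested if it had 10 or more counts in 2 or more libraries, which left 30 collagen genes among 12296 rows. RNA came from early-passage mouse embryonic fibroblasts of stage E13.5, in 8 libraries that form 4 groups of 2, lettered A and B. The groups were mutant cells (Dino lox/lox) with doxorubicin, mutant cells with vehicle, WT cells (Dino+/+) with doxorubicin, and WT cells with vehicle. Doxorubicin, a drug that breaks DNA and activates p53, was given at 0.2 µg/mL for 8 h to 300000 cells. Dino is a long noncoding RNA gene next to Cdkn1a that responds to p53. The RNA of Dino itself was not analysed here. The labels give neither strain nor Cre, and do not say whether letters A and B are separate cultures or embryos, so p-values measure the spread between these libraries, which may be technical.

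Collagens are secreted proteins whose chains wind in threes into a triple helix. Fibroblasts are a main source of them in connective tissue. Fibrillar collagens form the fibrils that give tissue its tensile strength, FACIT collagens sit on fibril surfaces, and type IV chains build the mesh of basement membranes. Short-chain collagens form lattices, type VI forms beaded filaments, type VII anchors epithelia to the dermis, multiplexins carry sugar chains and release anti-angiogenic fragments, and transmembrane collagens stay in the cell membrane. The 44 genes comprised 11 fibrillar genes (10 tested), 9 FACIT (5 tested), 7 beaded filament (3 tested), 6 basement membrane (5 tested), 4 transmembrane (1 tested), 3 short-chain network, 2 multiplexin and 1 anchoring fibril gene (all tested), and 1 other gene (not tested).

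Promoters are shown for the genes on which the results turn: the head-to-head pair Col4a1 and Col4a2, whose levels did not pass the test in any comparison, Col27a1 and Col10a1, which rose with doxorubicin, and Col8a2, which fell with doxorubicin and was lower in mutant cells. The windows run from 250 bases before to 50 bases after the RefSeq start (300 bases, GRCm38.p6). They are Col4a1, chr8:11312777-11313076, minus strand; Col4a2, chr8:11312555-11312854, plus strand; Col27a1, chr4:63215162-63215461, plus strand; Col10a1, chr10:34389731-34390030, plus strand; and Col8a2, chr4:126286544-126286843, plus strand. Capitals mark a CAAT box core (searched as CCAAT), a GC box core (searched as GGGCGG) or a TATA box (searched as TATAAA) on either strand, and overlapping matches run together.
Col4a1: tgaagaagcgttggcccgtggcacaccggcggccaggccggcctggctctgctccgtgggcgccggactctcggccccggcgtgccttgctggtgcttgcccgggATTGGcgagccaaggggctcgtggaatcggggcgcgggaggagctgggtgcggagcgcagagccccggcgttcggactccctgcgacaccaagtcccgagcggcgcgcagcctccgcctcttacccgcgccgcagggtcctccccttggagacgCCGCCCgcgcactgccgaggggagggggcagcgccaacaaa
Col4a2: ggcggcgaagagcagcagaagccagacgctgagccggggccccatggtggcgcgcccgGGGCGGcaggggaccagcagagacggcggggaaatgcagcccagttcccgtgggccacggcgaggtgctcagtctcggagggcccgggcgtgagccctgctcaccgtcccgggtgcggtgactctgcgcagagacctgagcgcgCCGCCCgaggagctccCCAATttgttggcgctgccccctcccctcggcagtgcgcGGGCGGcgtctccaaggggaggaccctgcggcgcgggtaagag
Col27a1: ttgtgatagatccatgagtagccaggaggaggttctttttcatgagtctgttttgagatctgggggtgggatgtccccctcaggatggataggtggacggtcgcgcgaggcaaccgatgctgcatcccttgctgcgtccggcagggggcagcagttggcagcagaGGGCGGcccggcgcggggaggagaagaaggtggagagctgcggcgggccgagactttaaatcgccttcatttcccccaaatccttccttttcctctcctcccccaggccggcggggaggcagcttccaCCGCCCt
Col10a1: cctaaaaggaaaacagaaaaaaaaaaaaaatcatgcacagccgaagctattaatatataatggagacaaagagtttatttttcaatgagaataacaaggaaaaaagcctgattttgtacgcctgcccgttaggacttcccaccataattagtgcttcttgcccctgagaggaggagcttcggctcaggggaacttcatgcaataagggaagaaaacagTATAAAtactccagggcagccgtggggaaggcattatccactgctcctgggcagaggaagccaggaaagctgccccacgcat
Col8a2: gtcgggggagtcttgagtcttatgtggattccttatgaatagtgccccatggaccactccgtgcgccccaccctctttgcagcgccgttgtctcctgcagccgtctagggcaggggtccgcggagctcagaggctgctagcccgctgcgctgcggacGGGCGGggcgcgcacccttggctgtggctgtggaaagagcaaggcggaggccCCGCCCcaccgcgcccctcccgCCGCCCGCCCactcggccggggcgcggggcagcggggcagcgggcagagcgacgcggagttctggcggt
The Col4a1 and Col4a2 windows share 78 bases, chr8:11312777-11312854, read in opposite directions. The RefSeq table held 25 windows for 23 of the 30 tested collagen genes, and 32851 windows in all. GGGCGG, the core of a GC box, occurred in 17 of the 25 collagen windows, and in 35.7% of all windows. CCAAT occurred in 10 of the 25 (37.4% of all windows), TATAAA in 2, those of Col10a1 and Col3a1 (13.6% of all), and TGANTCA, an AP-1 motif, in 1, that of Col6a1 (7.8% of all). CACGTG and the p53 decamer were in none of the 25 windows, against 7.2% and 8.4% of all windows. These are matches of letters in a window and were not tested against any response. The start used for the Col27a1 window lies inside the position given for the gene below.

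The libraries held 25482805 to 33285171 counts each. Levels are given as CPM, counts scaled to a common library size after TMM normalization. A listed 0 is compatible with up to 3 counts, or 0.0879 to 0.120 CPM by library, a limit for counting error only. Mdm2, a p53 target that served as a check of the treatment, averaged 1053 ± 20.9 CPM with doxorubicin and 140 ± 6.62 CPM with vehicle in mutant cells, and 1159 ± 65.0 CPM with doxorubicin and 136 ± 5.39 CPM with vehicle in WT cells (SD, n = 2 each). The chi-square statistic of letter A against letter B, divided by its degrees of freedom, was 18.3 in the WT doxorubicin group and 5.49 to 6.29 in the other 3 groups. Xist, the RNA of the inactive X chromosome, averaged 523 and 233 CPM in mutant cells with doxorubicin and vehicle, against 0.304 and 0.276 CPM in WT cells with doxorubicin and vehicle. Ddx3y, a Y-linked gene, averaged 59.7 and 73.9 CPM in mutant cells with doxorubicin and vehicle, against 460 and 546 CPM in WT cells with doxorubicin and vehicle. These sex-linked RNAs thus differed between mutant and WT libraries at both treatments, and an effect of genotype and one of the sex of the embryos cannot be told apart. All 12 fibroblast markers listed were tested. Their summed level was 3703 to 3729 CPM with doxorubicin and 4603 to 4624 CPM with vehicle in mutant cells, and 3690 to 3804 CPM with doxorubicin and 4646 to 4716 CPM with vehicle in WT cells. Prrx1, a mesenchymal transcription factor, carried most of that gap, with means of 495 CPM with doxorubicin and 1312 CPM with vehicle in mutant cells, and 520 CPM with doxorubicin and 1416 CPM with vehicle in WT cells. The markers did not move one way. With doxorubicin 1 of the 12 rose and 6 fell in mutant cells, and 4 rose and 6 fell in WT cells. Of all rows tested, 54.0% were called in mutant and 57.2% in WT cells. Dcn, decorin, was called higher in both. In bulk RNA, fewer cells of a type and less RNA per cell cannot be told apart.

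Collagen genes together took 0.521% and 0.494% of all counts in mutant doxorubicin libraries A and B, and 0.504% and 0.487% in mutant vehicle libraries A and B. They took 0.584% and 0.535% in WT doxorubicin libraries, and 0.521% and 0.546% in WT vehicle libraries. The widest exact (Clopper-Pearson) 95% interval of these shares was that of WT doxorubicin library A, 0.581% to 0.587%. Doxorubicin libraries exceeded vehicle libraries by 0.0190 percentage points (two-sided exact permutation test, 4 against 4 libraries, p = 0.486, adjusted over 9 shares 0.624), and their values overlapped. The difference of mutant minus WT libraries was -0.0449 points (exact permutation p = 0.0286, the smallest this test allows, adjusted over 9 shares 0.0857). Both tests shuffled the libraries without regard to the other factor. The 4 mutant values lay below the 4 WT values, though mutant doxorubicin library A and WT vehicle library A both rounded to 0.521%. Col1a2, Col5a2, Col8a1, Col12a1 and Col6a3 together held 70.6% to 73.9% of the collagen counts of each library. They are not the 5 genes of most counts: Col4a5 had 70226 counts over the 8 libraries, and Col6a3 63792. Levels are not compared between genes, since no length-normalized values were computed and the labels name both a capture kit and 3′ sequencing.

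In mutant cells, doxorubicin raised 10 of the 30 tested collagen genes, lowered 7 and left 13 without a call (edgeR quasi-likelihood test, adjusted p under 0.05). Of all rows tested in mutant cells, 28.3% were higher, 25.7% lower and 54.0% either. In WT cells it raised 11, lowered 7 and left 12 without a call, against 29.3% of all rows higher, 27.9% lower and 57.2% either. The share of collagen genes called, 56.7% in mutant and 60% in WT cells, was thus near that of all rows. Their median log2 fold change was -0.01 in mutant and -0.02 in WT cells, and that of all rows was 0.01 in both. Of the genes called, 9 were higher in both genotypes, which is 9 of 10 in mutant and 9 of 11 in WT cells. Another 6 were lower in both, 6 of 7 in either genotype. No gene was called in opposite directions, 2 were called in mutant cells and 3 in WT cells alone, and 10 in neither; whether the genotypes differ was tested separately. Changes of 2-fold or more among the called genes numbered 4 higher and 2 lower in mutant cells, and 4 higher and 1 lower in WT cells. Of all rows, 12.7% were called higher and 6.48% lower by 2-fold or more in mutant cells, and 13.3% higher and 7.48% lower in WT cells. One of the 4 higher genes in each genotype, Col9a3, passed the filter on low counts only through its doxorubicin libraries.

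**Figure D1:**
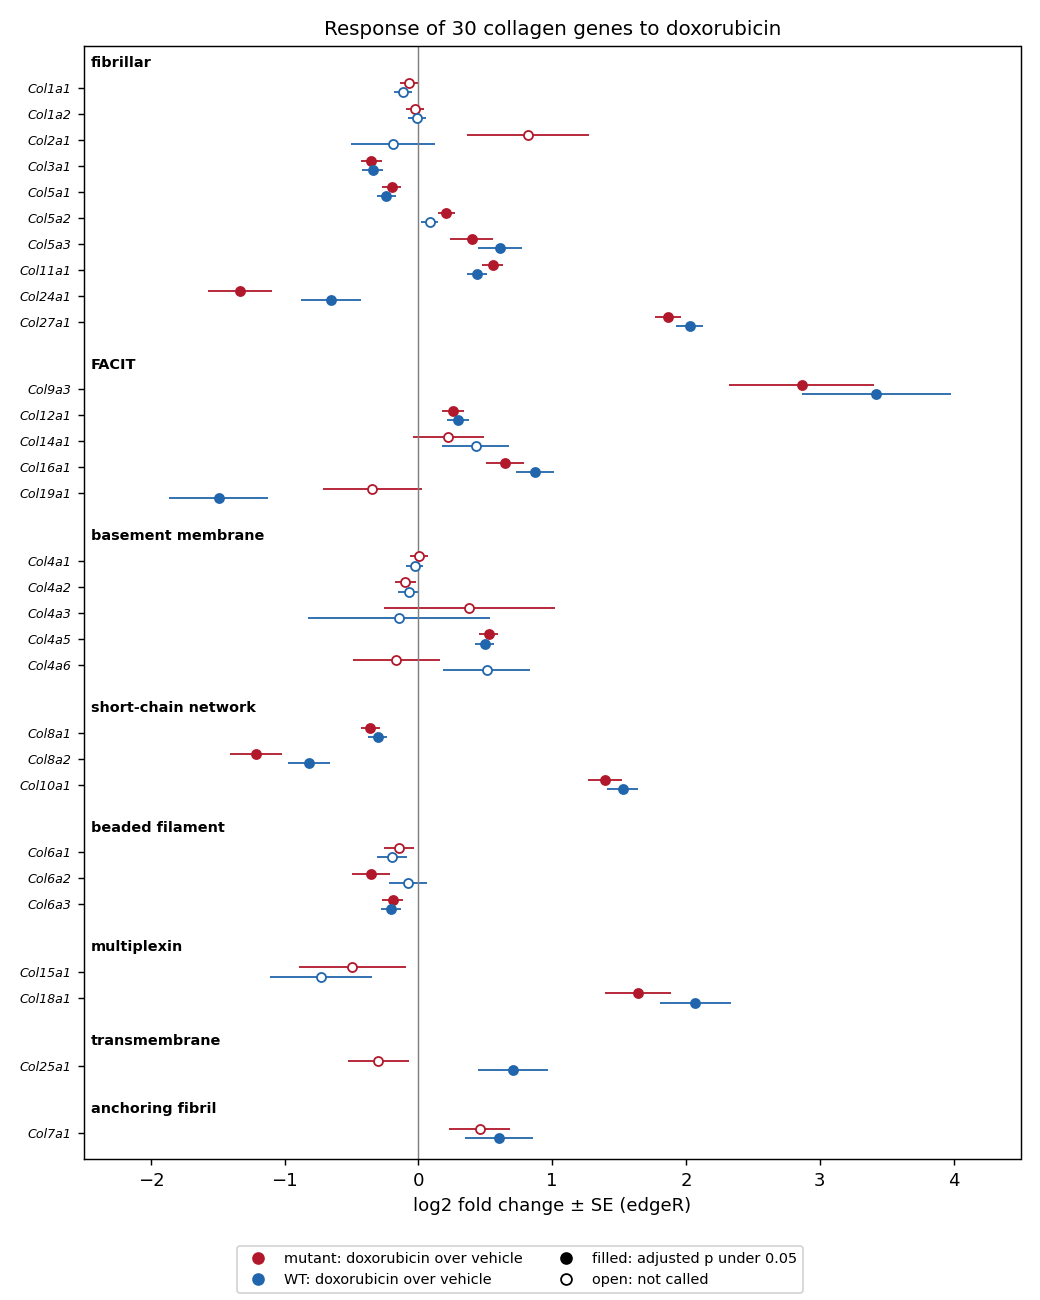
Log2 fold change of doxorubicin over vehicle for the 30 tested collagen genes, grouped by class, in mutant cells (red, upper point) and WT cells (blue, lower point); bars are the SE of the edgeR fit, and filled points have an adjusted p under 0.05. Col27a1, Col18a1, Col10a1 and Col9a3 lie above 1 in both genotypes, and the type I chains lie near 0.

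Among fibrillar genes, Col27a1 rose most. It codes for a fibrillar collagen with a shortened triple helix, known from cartilage, and lies at chr4:63214009-63334991 (GRCm38, plus strand). It had 65.6 and 66.9 CPM in mutant doxorubicin libraries A and B, against 18.4 and 17.9 CPM in mutant vehicle libraries. In WT cells it had 66.0 and 53.04 CPM with doxorubicin, against 14.6 and 14.6 CPM with vehicle. Every doxorubicin library lay far above every vehicle library. The change was 3.65-fold in mutant cells (log2 1.87 ± 0.10 SE, adjusted p = 7.86e-13) and 4.08-fold in WT cells (log2 2.03 ± 0.10, adjusted p = 2.14e-13). Col24a1, the gene most like Col27a1 in the structure of its protein, moved the other way (chr3:145292472-145552013, plus strand). It had 1.44 and 2.30 CPM with doxorubicin, against 4.77 and 4.67 CPM with vehicle, in mutant cells. In WT cells the level was 2.88 and 2.16 CPM with doxorubicin, against 4.83 and 3.19 CPM with vehicle. The groups did not overlap in either genotype, but WT doxorubicin library A and WT vehicle library B lay close together. The log2 fold change was -1.33 ± 0.24 in mutant cells (adjusted p = 5.96e-05) and -0.65 ± 0.22 in WT cells (adjusted p = 0.0156). The WT call was lost without WT vehicle library A (adjusted p = 0.273), without WT doxorubicin library B (adjusted p = 0.150) and with DESeq2 (adjusted p = 0.0509).

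The type I chains, which form the bulk of fibrils in skin, bone and tendon, did not pass the test. Col1a2 (chr6:4505618-4541543, plus strand) had 1815 and 1677 CPM with doxorubicin, against 1842 and 1718 CPM with vehicle, in mutant cells. WT cells had 1959 and 1811 CPM with doxorubicin, against 1851 and 1950 CPM with vehicle. The groups overlapped in both genotypes, and the 95% interval of the log2 fold change was -0.17 to 0.11 in mutant and -0.15 to 0.13 in WT cells. Col1a1 (chr11:94936224-94953042, plus strand), the partner chain, had 226 and 234 CPM with doxorubicin and 240 and 243 CPM with vehicle in mutant cells, and 236 and 245 CPM with doxorubicin and 250 and 270 CPM with vehicle in WT cells. Its log2 fold change was -0.07 ± 0.07 in mutant cells (adjusted p = 0.413) and -0.11 ± 0.07 in WT cells (adjusted p = 0.157). Col3a1 (chr1:45311538-45349706, plus strand), whose chains form type III fibrils in skin and vessels, did fall. It had 195 and 172 CPM with doxorubicin, against 243 and 226 CPM with vehicle, in mutant cells. In WT cells the values were 214 and 195 CPM with doxorubicin, against 248 and 271 CPM with vehicle. No doxorubicin library reached a vehicle library, and the log2 fold change was -0.35 ± 0.08 in mutant cells (adjusted p = 0.000572) and -0.34 ± 0.08 in WT cells (adjusted p = 0.000673).

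Type V collagen, which nucleates fibrils and sets their diameter, has chains from 3 genes. Col5a1 (chr2:27886381-28039510, plus strand) fell: it had 153 and 158 CPM with doxorubicin and 179 and 178 CPM with vehicle in mutant cells, and 145 and 158 CPM with doxorubicin and 184 and 175 CPM with vehicle in WT cells. The groups did not overlap, and the log2 fold change was -0.20 ± 0.07 in mutant cells (adjusted p = 0.0199) and -0.24 ± 0.07 in WT cells (adjusted p = 0.00551). The mutant call was lost without any 1 of the 4 mutant libraries: adjusted p was 0.0809 without vehicle library A, 0.0827 without vehicle library B, 0.116 without doxorubicin library A and 0.0512 without doxorubicin library B. The WT call was lost without WT doxorubicin library A (adjusted p = 0.0581). Col5a2 (chr1:45374331-45503282, minus strand), whose chain pairs with that of Col5a1, had 832 and 807 CPM with doxorubicin and 729 and 690 CPM with vehicle in mutant cells, and 799 and 802 CPM with doxorubicin and 745 and 765 CPM with vehicle in WT cells. Its log2 fold change was 0.21 ± 0.06 in mutant cells, a call (adjusted p = 0.00802), and 0.08 ± 0.06 in WT cells, no call (adjusted p = 0.263). The mutant call was lost without mutant vehicle library B (adjusted p = 0.0867) or mutant doxorubicin library A (adjusted p = 0.0619). Col5a3 (chr9:20770050-20815117, minus strand), with few counts, had 6.61 and 8.47 CPM with doxorubicin and 5.35 and 6.09 CPM with vehicle in mutant cells, and 5.57 and 7.01 CPM with doxorubicin and 3.97 and 4.28 CPM with vehicle in WT cells. Its log2 fold change was 0.40 ± 0.16 in mutant cells (adjusted p = 0.0398) and 0.61 ± 0.16 in WT cells (adjusted p = 0.00334). The mutant call was lost without mutant vehicle library A (adjusted p = 0.226), vehicle library B (0.0506) or doxorubicin library B (0.403) and with DESeq2 (0.113), and the WT call without WT doxorubicin library B (adjusted p = 0.0673).

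Col11a1 (chr3:114030479-114220756, plus strand), a type XI chain that builds thin fibrils in cartilage, rose in both genotypes and was lower in mutant cells at either treatment. It had 93.9 and 93.1 CPM with doxorubicin, against 64.7 and 62.5 CPM with vehicle, in mutant cells. In WT cells it had 142 and 132 CPM with doxorubicin, against 108 and 94.9 CPM with vehicle. The 4 groups did not overlap, although the mutant doxorubicin libraries lay just under WT vehicle library B. The log2 fold change with doxorubicin was 0.56 ± 0.08 in mutant cells (adjusted p = 3.17e-06) and 0.44 ± 0.08 in WT cells (adjusted p = 3.99e-05). Col2a1, the main cartilage collagen, had few counts, 295 over the 8 libraries and 41 to 77 in each WT library, with levels of 0.521 and 1.23 CPM with doxorubicin and 0.274 and 0.711 CPM with vehicle in mutant cells, and 1.72 and 1.63 CPM with doxorubicin and 1.52 and 2.26 CPM with vehicle in WT cells. Neither response to doxorubicin was called (log2 0.82 ± 0.45 in mutant cells, adjusted p = 0.136, and -0.19 ± 0.32 in WT cells, adjusted p = 0.634). The mutant response passed without mutant vehicle library B (log2 1.67, adjusted p = 0.0290) or mutant doxorubicin library A (log2 1.31, adjusted p = 0.0244).

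**Figure D2:**
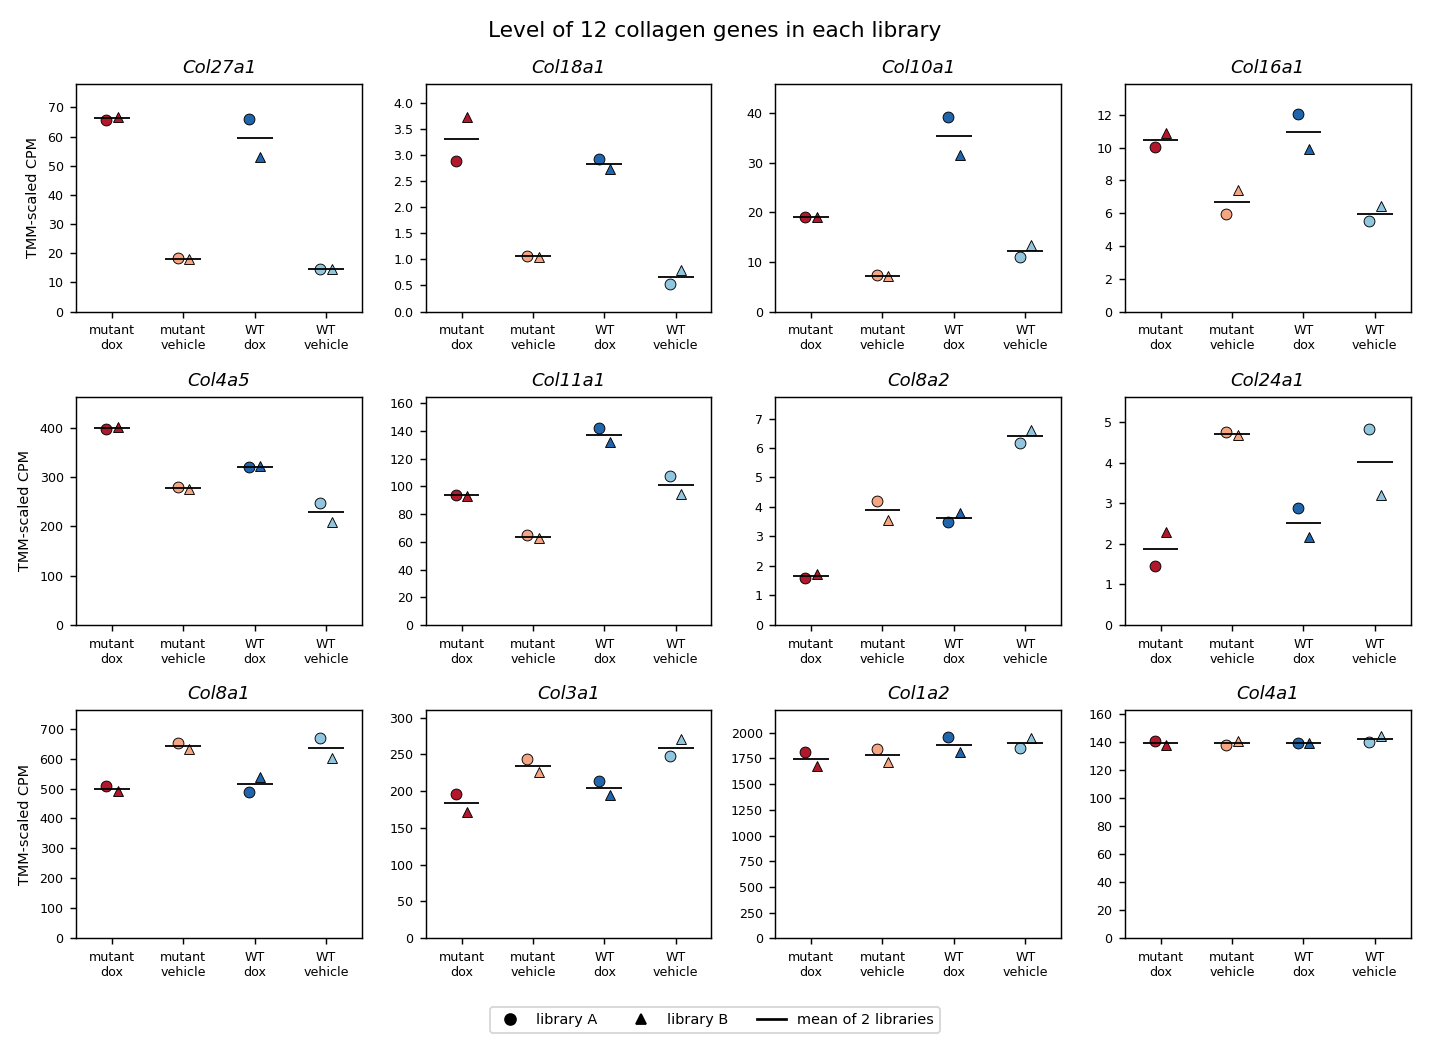
TMM-scaled CPM of 12 collagen genes in each library, with mutant doxorubicin, mutant vehicle, WT doxorubicin and WT vehicle from left to right; circles are library A, triangles library B, and bars the mean of the 2. Col27a1, Col18a1, Col10a1 and Col16a1 are higher in every doxorubicin library than in the vehicle libraries of the same genotype, Col8a2, Col24a1, Col8a1 and Col3a1 are lower, and the vertical axes start at 0.

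Of the 5 tested FACIT genes, 3 rose in mutant cells and none fell, and in WT cells 3 rose and 1 fell. Col16a1 (chr4:130047817-130099277, plus strand), a fibril-associated collagen of fibroblasts and smooth muscle, had 10.1 and 10.9 CPM with doxorubicin, against 5.93 and 7.41 CPM with vehicle, in mutant cells. WT cells gave 12.03 and 9.92 CPM with doxorubicin, against 5.53 and 6.42 CPM with vehicle. The doxorubicin libraries lay above all vehicle libraries, and the log2 fold change was 0.65 ± 0.14 in mutant cells (adjusted p = 0.000596) and 0.87 ± 0.14 in WT cells (adjusted p = 1.85e-05). Col12a1 (chr9:79598987-79721141, minus strand), which links type I fibrils to the surrounding matrix, had 402 and 340 CPM with doxorubicin and 334 and 286 CPM with vehicle in mutant cells, and 411 and 391 CPM with doxorubicin and 329 and 324 CPM with vehicle in WT cells. Mutant doxorubicin library B and mutant vehicle library A were close, while the WT groups stood apart. Its log2 fold change was 0.26 ± 0.08 in mutant cells (adjusted p = 0.0107) and 0.30 ± 0.08 in WT cells (adjusted p = 0.00372). The mutant call was lost without mutant vehicle library B (adjusted p = 0.196) or mutant doxorubicin library A (adjusted p = 0.239).

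Col9a3 and Col19a1 had few counts and averaged under 1 CPM, and both were chosen for description after their values were seen. Col9a3 (chr2:180598102-180622192, plus strand), a type IX chain of cartilage fibril surfaces, had 45 counts over the 2 mutant doxorubicin libraries, against 7 counts over the 2 mutant vehicle libraries. In WT cells the level was 57 counts with doxorubicin, against 5 counts with vehicle. Scaled to library size, the ratio was 7.51 in mutant cells (exact Poisson 95% interval 3.36 to 19.7) and 11.2 in WT cells (4.53 to 35.8), intervals that cover counting error only. The edgeR calls had adjusted p = 0.000117 in mutant and 2.06e-05 in WT cells, but the gene passed the filter only through the doxorubicin groups, so a difference was required for it to be tested. Its exons share 234 bases with Tcfl5 on the opposite strand in GENCODE, which also rose (log2 1.00 in mutant and 0.60 in WT cells). The strand setting of the counting was not given in the sources used here, so their reads cannot be told apart. Col19a1 (chr1:24257683-24587922, minus strand), a FACIT of muscle and brain, had 0.641 and 0.752 CPM with doxorubicin and 0.720 and 1.05 CPM with vehicle in mutant cells, and 0.497 and 0.376 CPM with doxorubicin and 1.00 and 1.44 CPM with vehicle in WT cells. It fell in WT cells (log2 -1.49 ± 0.37, adjusted p = 0.00152), and its log2 fold change in mutant cells was -0.34 ± 0.37 (adjusted p = 0.458). Col14a1, which modulates fibril growth in skin and tendon, was not called in either genotype and ranged from 1.18 to 1.72 CPM over the 8 libraries.

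Type IV collagen, the network former of basement membranes, is made from chains whose genes lie in head-to-head pairs. Col4a1 (chr8:11198423-11312889, minus strand) had 141 and 138 CPM with doxorubicin and 137 and 140 CPM with vehicle in mutant cells, and 139 and 139 CPM with doxorubicin and 140 and 144 CPM with vehicle in WT cells. All 8 libraries thus fell within a narrow range. Its log2 fold change was 0.00 ± 0.07 in mutant cells (95% interval -0.14 to 0.14) and -0.03 ± 0.07 in WT cells (-0.17 to 0.11). Col4a2 (chr8:11312805-11449287, plus strand), which shares the promoter region printed above, had 111 and 120 CPM with doxorubicin and 120 and 127 CPM with vehicle in mutant cells, and 119 and 131 CPM with doxorubicin and 124 and 139 CPM with vehicle in WT cells. Its groups overlapped or touched, and the log2 fold change was -0.10 ± 0.08 in mutant and -0.07 ± 0.08 in WT cells (adjusted p = 0.301 in mutant and 0.455 in WT cells). Exons of the pair share 22 bases in GENCODE.

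Col4a5 (chrX:141475370-141689236, plus strand), the type IV chain mutated in the X-linked form of Alport syndrome, rose. It had 399 and 402 CPM with doxorubicin, against 280 and 276 CPM with vehicle, in mutant cells. WT cells had 321 and 323 CPM with doxorubicin, against 248 and 209 CPM with vehicle. The groups did not overlap, and all mutant doxorubicin values were above all others. The log2 fold change was 0.52 ± 0.07 in mutant cells (adjusted p = 3.07e-06) and 0.49 ± 0.07 in WT cells (adjusted p = 6.27e-06). Col4a6, its head-to-head neighbour on the X chromosome, with RefSeq starts 1343 bases apart, ranged from 0.703 to 1.42 CPM and was not called in either genotype. Col4a3, another chain of mature kidney basement membrane, was just inside the filter with 3 to 13 counts per library, and was not called either.

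The 3 short-chain genes all passed the test, and in different directions. Col10a1 (chr10:34389981-34397085, plus strand), the collagen of hypertrophic cartilage, had 18.9 and 18.96 CPM with doxorubicin, against 7.27 and 7.18 CPM with vehicle, in mutant cells. In WT cells the values were 39.2 and 31.6 CPM with doxorubicin, against 11.1 and 13.4 CPM with vehicle. All 4 groups stood apart. The change was 2.62-fold in mutant cells (log2 1.39 ± 0.13, adjusted p = 5.65e-09) and 2.88-fold in WT cells (log2 1.53 ± 0.11, adjusted p = 1.92e-10). The gene lies within Nt5dc1 on the opposite strand, with which it shares 18 exon bases, and Nt5dc1 fell (log2 -0.77 in mutant and -0.74 in WT cells), while its log2 difference between mutant and WT cells was 0.03 with doxorubicin and 0.06 with vehicle. Col8a1 (chr16:57624256-57754737, minus strand), a lattice-forming type VIII chain of vessel walls and the cornea, had 508 and 491 CPM with doxorubicin, against 651 and 631 CPM with vehicle, in mutant cells. In WT cells it had 490 and 539 CPM with doxorubicin, against 668 and 603 CPM with vehicle. Each doxorubicin library was below each vehicle library, and the log2 fold change was -0.36 ± 0.07 in mutant cells (adjusted p = 0.000166) and -0.31 ± 0.07 in WT cells (adjusted p = 0.000785). Col8a2 (chr4:126286794-126314330, plus strand), the other type VIII chain, had 1.60 and 1.74 CPM with doxorubicin, against 4.22 and 3.55 CPM with vehicle, in mutant cells. WT cells gave 3.48 and 3.79 CPM with doxorubicin, against 6.16 and 6.62 CPM with vehicle. Mutant doxorubicin libraries were lowest and WT vehicle libraries highest, while mutant vehicle and WT doxorubicin libraries overlapped. The log2 fold change was -1.21 ± 0.20 in mutant cells (adjusted p = 1.81e-05) and -0.82 ± 0.16 in WT cells (adjusted p = 0.000134).

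Type VI collagen, whose beaded filaments surround cells, is assembled from the chains of Col6a1, Col6a2 and Col6a3. Col6a3 (chr1:90766860-90844001, minus strand) had 289 and 255 CPM with doxorubicin and 325 and 297 CPM with vehicle in mutant cells, and 255 and 227 CPM with doxorubicin and 284 and 272 CPM with vehicle in WT cells. It fell by 0.19 ± 0.08 on the log2 scale in mutant cells (adjusted p = 0.0388) and by 0.21 ± 0.08 in WT cells (adjusted p = 0.0272), with groups close together but not overlapping. The mutant call was lost without mutant vehicle library A (adjusted p = 0.295) or doxorubicin library B (0.380) and with DESeq2 (0.0530), and the WT call without WT vehicle library A (0.129) or doxorubicin library B (0.220). Col6a2 (chr10:76595756-76623630, minus strand) had 7.61 and 10.9 CPM with doxorubicin and 12.4 and 11.2 CPM with vehicle in mutant cells, and 9.65 and 9.96 CPM with doxorubicin and 9.51 and 11.1 CPM with vehicle in WT cells. The mutant change was a call (log2 -0.35 ± 0.14, adjusted p = 0.0423), and the WT change was -0.08 ± 0.14 (adjusted p = 0.663). That mutant call was lost without mutant vehicle library A (adjusted p = 0.213), vehicle library B (0.0635) or doxorubicin library A (0.563), and with DESeq2 (0.0958), the filter at 5 CPM (0.0557) or only the 4 mutant libraries fitted (0.0614). Col6a1 was not called in either genotype, with 25.7 to 39.1 CPM over the 8 libraries, but passed in WT cells without WT doxorubicin library B (log2 -0.43, adjusted p = 0.00257).

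Col18a1 (chr10:77052178-77166530, minus strand), a multiplexin whose end fragment endostatin inhibits vessel growth, had 2.88 and 3.72 CPM with doxorubicin, against 1.06 and 1.05 CPM with vehicle, in mutant cells. In WT cells the level was 2.92 and 2.72 CPM with doxorubicin, against 0.520 and 0.791 CPM with vehicle. Doxorubicin libraries lay well above vehicle libraries in both genotypes. Slc19a1, which overlaps the gene on the opposite strand without shared exon bases, fell (log2 -1.80 in mutant and -2.37 in WT cells). The change of Col18a1 was 3.12-fold in mutant cells (log2 1.64 ± 0.25, adjusted p = 7.31e-06) and 4.20-fold in WT cells (log2 2.07 ± 0.26, adjusted p = 7.53e-07). Col15a1, the other multiplexin, known from basement membrane zones of muscle and vessels, was not called (log2 -0.49 ± 0.40 in mutant cells, adjusted p = 0.313, and -0.73 ± 0.38 in WT cells, adjusted p = 0.110). Col7a1 (chr9:108953586-108984875, plus strand), the anchoring fibril collagen, had 2.40 and 2.41 CPM with doxorubicin and 1.58 and 1.93 CPM with vehicle in mutant cells, and 1.66 and 1.60 CPM with doxorubicin and 1.19 and 0.967 CPM with vehicle in WT cells. The groups did not overlap, yet the change was no call in mutant cells (log2 0.46 ± 0.23, adjusted p = 0.102) and barely a call in WT cells (log2 0.60 ± 0.26, adjusted p = 0.0485). The WT call was lost under 11 of 16 alternatives, among them leaving out any 1 WT library, where adjusted p was 0.0588 without vehicle library A, 0.260 without vehicle library B, 0.132 without doxorubicin library A and 0.0986 without doxorubicin library B. It was also lost without mutant doxorubicin library A (0.0545) or B (0.0568), with the replicate block (0.0526) and with DESeq2 (0.170). Col25a1 (chr3:130180358-130599884, plus strand), a transmembrane collagen of neurons and muscle, had 2.76 and 3.13 CPM with doxorubicin and 4.39 and 2.88 CPM with vehicle in mutant cells, and 2.72 and 2.04 CPM with doxorubicin and 1.75 and 1.20 CPM with vehicle in WT cells. The mutant groups overlapped and the WT groups did not. The log2 fold change was -0.30 ± 0.23 in mutant cells (adjusted p = 0.279) and 0.71 ± 0.26 in WT cells (adjusted p = 0.0245). The WT call was lost without WT vehicle library B (adjusted p = 0.260) or doxorubicin library A (0.202) and with DESeq2 (0.0712).

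The 14 genes that were not tested had 0 to 52 counts over the 8 libraries. Just outside the filter were Col9a1, a type IX chain, with 52 counts, and Col28a1, a collagen of peripheral nerve, with 40 counts, each with 10 or more counts in 1 library. Col23a1, a transmembrane collagen, had 44 counts and Col4a4, the partner of Col4a3, 16. Col6a5 had 15 counts, Col9a2 15, Col20a1 11, Col22a1 8 and Col13a1 6. Col6a4, Col11a2 and Col17a1, the last a hemidesmosome component of epithelia, had 4 counts each, and Col6a6 had 1. Col26a1 had no count, which allows at most 0.0879 to 0.120 CPM in a library. These levels were too low to compare between groups at this depth.

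The proportions among chains were examined in 11 ratios chosen after the data were seen. Two-sided exact permutation tests compared 4 against 4 libraries, and the smallest p such a test can give is 0.0286. The tests shuffled all libraries without regard to the other factor, genotype or treatment. Where that factor also moves a ratio or share, the libraries are not exchangeable, which limits what p can show. The ratio of Col5a1 to Col5a2 counts was 0.183 and 0.196 with doxorubicin and 0.245 and 0.258 with vehicle in mutant cells, and 0.181 and 0.198 with doxorubicin and 0.247 and 0.228 with vehicle in WT cells. All 4 doxorubicin libraries lay below all 4 vehicle libraries (log2 difference -0.37, exact p = 0.0286, adjusted over 11 ratios 0.105). Col3a1 to Col5a2 (log2 difference -0.50) and Col4a5 to Col4a1 (0.52) separated as fully, with the same exact p = 0.0286 and adjusted 0.105, so none passed the adjustment. The ratio of Col1a1 to Col1a2, chains that join in type I collagen, was 0.124 and 0.140 with doxorubicin and 0.130 and 0.141 with vehicle in mutant cells, and 0.120 and 0.135 with doxorubicin and 0.135 and 0.139 with vehicle in WT cells. The treatments overlapped (log2 difference -0.07, exact p = 0.286). Col4a2 to Col4a1 differed by -0.07 (exact p = 0.314). The ratio of Col8a2 to Col8a1 was lower in all 4 mutant libraries, at 0.00315 to 0.00648, than in the 4 WT libraries, at 0.00703 to 0.0110 (log2 difference -0.91, exact p = 0.0286, adjusted over 11 ratios 0.314). Taken as shares of collagen counts, short-chain genes held 2.34 percentage points less with doxorubicin than with vehicle and FACIT genes 1.32 points more (exact p = 0.0286 each, adjusted over 9 shares 0.0857 each). Multiplexin genes held 0.0350 points more with the same exact p, and basement membrane genes 1.79 points more (exact p = 0.0571, adjusted over 9 shares 0.103). Beaded filament genes differed by -0.898 points (exact p = 0.0571, adjusted 0.103). Between mutant and WT libraries, the fibrillar share differed by -2.07 points and the transmembrane share by 0.0280 points (exact p = 0.0286 each, adjusted over 9 shares 0.0857 each). None passed the adjustment.

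**Figure D3:**
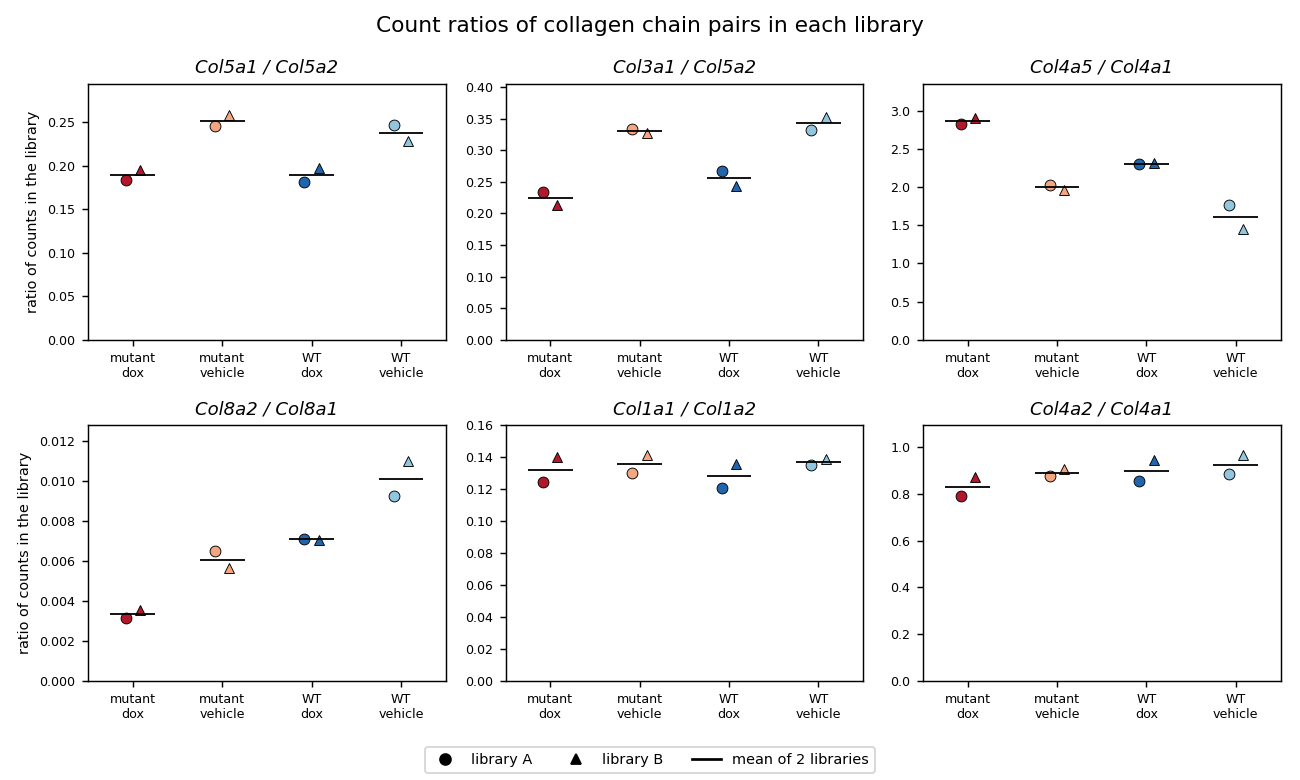
Ratio of counts between collagen chain pairs in each library, with mutant doxorubicin, mutant vehicle, WT doxorubicin and WT vehicle from left to right; circles are library A, triangles library B, bars the mean of the 2, and axes start at 0. Col5a1 to Col5a2 and Col3a1 to Col5a2 are lower in all doxorubicin libraries, Col4a5 to Col4a1 is higher, and Col1a1 to Col1a2 overlaps between treatments.

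With vehicle, mutant cells had 2 collagen genes higher and 4 lower than WT cells, and 24 not called. Of all rows tested, 2.77% were higher, 3.17% lower and 5.94% either in that comparison. With doxorubicin, mutant cells had 1 higher, 3 lower and 26 not called, against 3.93% of all rows higher, 3.74% lower and 7.67% either. The called share of collagen genes was 20% with vehicle and 13.3% with doxorubicin, above those of all rows, though a few genes make up each. Col10a1, Col11a1 and Col8a2 were lower in mutant cells and Col4a5 higher at both treatments. The treatments used separate libraries but a common fit. The labels do not say whether vehicle and doxorubicin libraries came from separate embryos or cultures, so the comparisons are not shown to be independent. The plot of CPM by library shows these 4 genes.

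From the libraries listed above, Col10a1 was lower in mutant than in WT cells, with a log2 fold change of -0.90 ± 0.11 with doxorubicin (adjusted p = 8.99e-06) and -0.77 ± 0.13 with vehicle (adjusted p = 0.000431). Col11a1 was 0.682 times the WT level with doxorubicin (log2 -0.55 ± 0.08, adjusted p = 4.12e-05) and 0.629 times with vehicle (log2 -0.67 ± 0.08, adjusted p = 3.81e-06). These 2 genes held their calls under every alternative tried. Col8a2 was 0.460 times the WT level with doxorubicin (log2 -1.12 ± 0.20, adjusted p = 0.000611), and this held likewise. With vehicle it was 0.607 times (log2 -0.72 ± 0.16, adjusted p = 0.00521), a call lost without mutant vehicle library B (adjusted p = 0.128) or WT vehicle library B (0.0848). Col2a1 was lower with vehicle (log2 -1.94 ± 0.39, adjusted p = 0.00256), but not without mutant vehicle library A (adjusted p = 0.0879) or WT vehicle library B (0.0930). With doxorubicin its difference was -0.93 ± 0.37 (adjusted p = 0.146), and it passed without mutant doxorubicin library B (log2 -1.68, adjusted p = 0.0395) and with no filter (adjusted p = 0.0295).

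Col2a1 (with vehicle), Col10a1 and Col11a1, called lower in mutant cells, are known from cartilage. So are Col9a3 and Col27a1, which were not called between genotypes at either treatment. With vehicle Col27a1 averaged 18.2 CPM in mutant and 14.6 CPM in WT cells. Other cartilage genes were therefore examined. Of 10 listed markers 8 were in the table and 3 were tested. Their summed level was 207 to 213 CPM with doxorubicin and 169 to 181 CPM with vehicle in mutant cells, and 152 to 176 CPM with doxorubicin and 151 to 157 CPM with vehicle in WT cells. Most of that sum was Sox9. Hapln1, a link protein of cartilage matrix, was lower in mutant cells with doxorubicin (log2 -0.87 ± 0.19, adjusted p = 0.00411, lost without WT doxorubicin library B at 0.103) and with vehicle (log2 -1.21 ± 0.18, adjusted p = 7.41e-05). Sox9, the transcription factor of chondrocytes, was higher in mutant cells with doxorubicin (log2 0.45 ± 0.08, adjusted p = 0.000430). With vehicle Sox9 was also higher (log2 0.28 ± 0.08, adjusted p = 0.0300), but not without any 1 vehicle library, where adjusted p ran from 0.0574 (without mutant library A) over 0.134 (without WT library A) and 0.172 (without WT library B) to 0.316 (without mutant library B). Matn3 was not called between genotypes. With doxorubicin Matn3 rose by log2 0.53 ± 0.19 in mutant cells (adjusted p = 0.0202) and 0.68 ± 0.17 in WT cells (adjusted p = 0.00208). Sox9 was called higher in mutant cells alone (log2 0.26 ± 0.08, adjusted p = 0.00610). Hapln1 was called lower in WT cells alone (log2 -0.44 ± 0.16, adjusted p = 0.0264). Each of these calls was lost when some 1 library was left out, and that of Hapln1 also with DESeq2 (adjusted p = 0.0733). The defining markers Acan, Comp, Matn1 and Ucma had 38, 13, 2 and 1 counts over all 8 libraries, and Matn4 had none. The part of such cells in the collagen differences was not tested. Of 8 bone markers, only Runx2 and Phex were tested, and neither was called between genotypes. Both fell with doxorubicin, Runx2 by 1.05 in mutant and 1.10 in WT cells on the log2 scale. Markers of other cell types that the cultures could hold were counted likewise. The 7 endothelial markers summed to 5.69 to 6.25 CPM with doxorubicin and 1.61 to 1.93 CPM with vehicle in mutant cells, and 6.89 to 11.3 CPM with doxorubicin and 2.15 to 3.22 CPM with vehicle in WT cells, with Tie1 and Cldn5 at 0. Tek, a receptor of angiopoietins, made up most of these sums, with means of 4.498 CPM with doxorubicin and 0.426 CPM with vehicle in mutant cells, and 7.53 CPM with doxorubicin and 0.976 CPM with vehicle in WT cells. The other 2 endothelial markers tested, Kdr and Cdh5, were not called in either genotype, and Pecam1 had 5 counts over all libraries. The 8 epithelial and 6 skeletal muscle markers summed to at most 5.80 and 1.13 CPM in any library. Of the epithelial markers tested, Krt19 rose with doxorubicin (log2 1.72 ± 0.22 in mutant and 1.65 ± 0.19 in WT cells), and Krt18 was not called. Des, the muscle marker tested, was called higher in mutant cells (log2 1.30 ± 0.47, adjusted p = 0.0242) and not called in WT cells (log2 0.64 ± 0.42). The 9 macrophage and leukocyte markers found summed to 36.3 to 40.1 CPM with doxorubicin and 32.6 CPM with vehicle in mutant cells, and 31.7 to 32.0 CPM with doxorubicin and 23.3 to 25.6 CPM with vehicle in WT cells. Of the 8 tested, 2 were higher in mutant than WT cells with doxorubicin, Csf1r (log2 1.01 ± 0.25) and Fcer1g (0.87 ± 0.19). With vehicle it was 1, Ptprc (0.67 ± 0.18), and 0 were lower at either treatment. Of all rows, 7.67% were called between genotypes with doxorubicin and 5.94% with vehicle. Doxorubicin raised 3 of the 8 in WT cells and 0 in mutant cells, and lowered 0. The 8 neural and Schwann cell markers summed to 832 to 835 CPM with doxorubicin and 1353 to 1361 CPM with vehicle in mutant cells, and 559 to 718 CPM with doxorubicin and 1119 to 1127 CPM with vehicle in WT cells. Nearly all of that was Ncam1, a cell adhesion molecule, with means of 811 CPM with doxorubicin and 1340 CPM with vehicle in mutant cells, and 611 CPM with doxorubicin and 1106 CPM with vehicle in WT cells. Nes, the intermediate filament nestin, went against the sum (log2 0.76 ± 0.11 in mutant and 0.79 ± 0.11 in WT cells). Of the 5 tested markers of this list, 1 rose and 2 fell in mutant cells, and 2 rose and 3 fell in WT cells. Of all rows, doxorubicin changed 54.0% in mutant and 57.2% in WT cells by the same test. Between genotypes, 3 of the 12 fibroblast markers were called higher in mutant cells with vehicle and 2 with doxorubicin, and 0 lower. Of the 5 neural markers tested, Nes was lower in mutant cells at both treatments, Sox2 higher with vehicle and Ncam1 higher with doxorubicin. Tek was lower in mutant cells with doxorubicin (log2 -0.74 ± 0.21), and no epithelial or skeletal muscle marker was called. The part of any of these cell types in the collagen changes was not tested.

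Col4a5 was higher in mutant than in WT cells, by log2 0.32 ± 0.07 with doxorubicin (adjusted p = 0.00838) and 0.28 ± 0.07 with vehicle (adjusted p = 0.0217). With doxorubicin the call was lost without mutant doxorubicin library B (adjusted p = 0.0621). With vehicle it was lost without mutant vehicle library A (adjusted p = 0.1246), mutant vehicle library B (0.105) or WT vehicle library B (0.405), where its log2 fold change was 0.17. The gene is X-linked, and the Xist and Y-linked levels given above differ between the same groups; their part was not tested. Col4a6, its X-linked neighbour, was not called in either comparison. Col25a1 was higher in mutant cells with vehicle (log2 1.32 ± 0.25, adjusted p = 0.00129), a call lost without mutant vehicle library A (adjusted p = 0.0618) or WT vehicle library B (0.0674). With doxorubicin its log2 difference was 0.31 ± 0.24 (adjusted p = 0.531). Col27a1 missed the threshold with vehicle (log2 0.32 ± 0.11, adjusted p = 0.0931), and passed it without WT doxorubicin library A (0.0272) or B (0.0314), which take no part in that comparison but in the estimate of spread, and with no filter (0.0399). Col6a1 passed with doxorubicin only without WT doxorubicin library B (log2 0.39, adjusted p = 0.0271). Col1a1, Col1a2, Col3a1, Col4a1, Col4a2, Col5a1, Col5a2 and Col8a1 were not called between genotypes at either treatment.

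**Figure D4:**
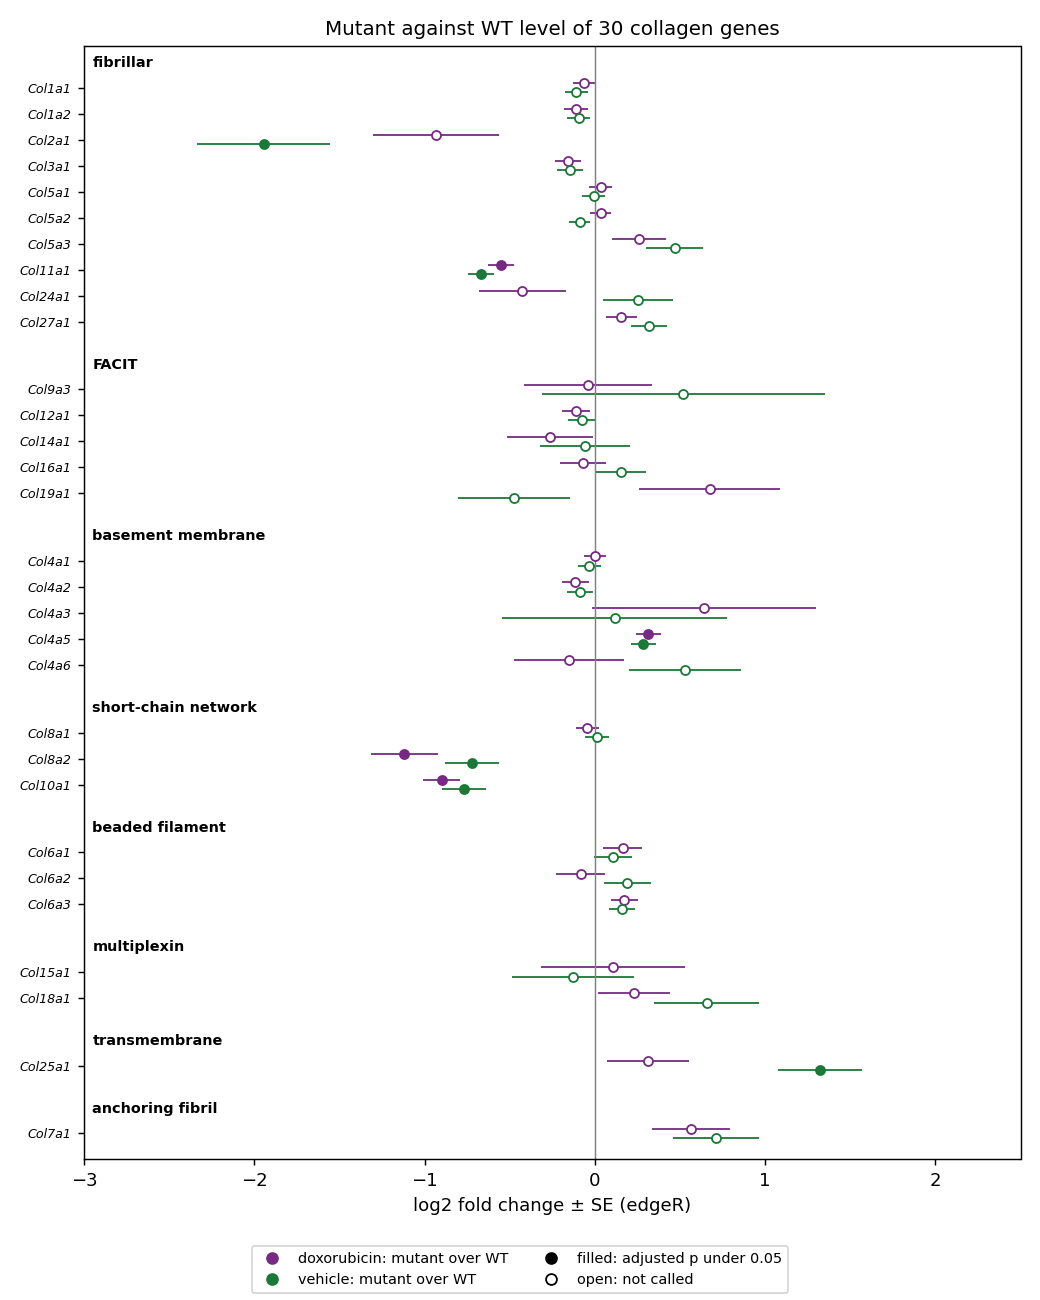
Log2 fold change of mutant over WT for the 30 tested collagen genes, grouped by class, with doxorubicin (purple, upper point) and vehicle (green, lower point); bars are the SE of the edgeR fit, and filled points have an adjusted p under 0.05. Col8a2, Col10a1 and Col11a1 lie below 0 and Col4a5 above it at both treatments, while Col2a1 and Col25a1 are filled with vehicle alone.

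Whether the response to doxorubicin differed between mutant and WT cells was tested directly as the difference of the 2 log2 fold changes. None of the 30 collagen genes passed, in either direction, against 0.0407% of all rows higher, 0.0488% lower and 0.0895% (11 rows) either. DESeq2 and limma-voom also called none. At an unadjusted p under 0.05 there were 2 of the 30, against 5.68% of all rows, a share near the background. They are named here after their values were seen and are Col25a1, with a difference of -1.01 ± 0.34 (95% interval -1.73 to -0.29, adjusted p = 0.566), and Col19a1, with 1.15 ± 0.53 (0.05 to 2.25, adjusted p = 0.854). For Col27a1 the difference was -0.16 ± 0.14 (95% interval -0.45 to 0.13), for Col10a1 -0.13 ± 0.17 (-0.49 to 0.22) and for Col18a1 -0.43 ± 0.37 (-1.21 to 0.35). For Col1a2 it was -0.02 ± 0.10 (-0.22 to 0.18). The calls in 1 genotype alone are therefore not shown to be specific to it.

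Genes that make, process or bind collagen were counted in 7 lists for the same responses. Of their 74 tested genes, 31 were called in mutant cells (20 higher, 11 lower) and 36 in WT cells (24 higher, 12 lower). Of all rows tested, a larger share was called, 54.0% in mutant and 57.2% in WT cells. Among 13 tested genes for prolyl and lysyl modification in the endoplasmic reticulum, 4 rose and 1 fell in mutant cells, and 3 rose and 2 fell in WT cells. Plod2, which hydroxylates lysines that later form stable cross-links, changed by log2 2.31 ± 0.08 in mutant cells (adjusted p = 1.43e-15) and 2.47 ± 0.08 in WT cells (adjusted p = 3.99e-16). P4ha1, a prolyl 4-hydroxylase subunit, rose by 0.42 ± 0.10 in mutant and 0.57 ± 0.10 in WT cells. P4ha3, another such subunit, fell by 0.38 in both, calls lost without mutant vehicle library A (adjusted p = 0.128) or doxorubicin library B (0.137), without WT vehicle library B (0.115), and with DESeq2 (0.0573 in mutant and 0.0536 in WT cells). Leprel2, a prolyl 3-hydroxylase, and Leprel4, part of the same family, were called in WT cells alone at 0.34 ± 0.14 and -0.46 ± 0.14. Leaving out any 1 WT library ended the Leprel2 call (log2 0.28 without vehicle library A to 0.41 without vehicle library B). The Leprel2 call was also lost with DESeq2 (adjusted p = 0.134), with no filter (0.0654) and with only the 4 WT libraries fitted (0.0561). Leaving out WT vehicle library B ended the Leprel4 call (log2 -0.44). Of 11 genes for folding and export of procollagen, 1 rose and 4 fell in mutant cells, and 2 rose and 4 fell in WT cells. Sec24d, a coat protein of the vesicles that carry procollagen, fell by 1.30 ± 0.07 in both. Fkbp14, a prolyl isomerase, fell by 0.97 ± 0.11 in mutant and 0.84 ± 0.11 in WT cells, and Ctage5, an export receptor, by 0.59 ± 0.08 in mutant and 0.64 ± 0.08 in WT cells. Tmem38b, a cation channel of the reticulum, rose by 0.51 ± 0.10 in both. Creb3l1, a transcription factor for collagen secretion, rose in WT cells by 0.36 ± 0.14. The Creb3l1 call was lost without WT vehicle library B (log2 0.30) or doxorubicin library A (log2 0.32), and with DESeq2 (adjusted p = 0.0997).

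Of 7 propeptide removal genes, 1 rose and 2 fell in mutant cells, and 2 rose and 2 fell in WT cells. Bmp1, the C-proteinase, rose by log2 0.63 ± 0.15 in mutant and 0.90 ± 0.15 in WT cells. Adamts2, an N-proteinase, rose in WT cells by 0.82 ± 0.23, lost without WT vehicle library A (adjusted p = 0.0730) or doxorubicin library A (0.0574). Adamts3, a related proteinase, fell by 1.09 ± 0.22 in mutant and 0.71 ± 0.22 in WT cells, where the WT call was lost without WT vehicle library A (0.0748), and Tll1 fell by 0.64 ± 0.07 in mutant and 0.58 ± 0.07 in WT cells. Of 6 cross-linking genes, 2 rose and 1 fell in either genotype. Loxl4 rose by 1.02 ± 0.12 in mutant and 1.11 ± 0.11 in WT cells, and Loxl1 fell by 0.70 ± 0.10 in mutant and 0.68 ± 0.10 in WT cells. Loxl2 rose by 0.39 ± 0.12 in mutant and 0.40 ± 0.12 in WT cells, calls lost without mutant vehicle library B (0.110) or doxorubicin library A (0.169), and without WT vehicle library B (0.0742) or doxorubicin library A (0.0729). Of 12 small leucine-rich proteoglycans and fibril-associated proteins, 2 rose and 1 fell in mutant cells, and 3 rose and 2 fell in WT cells. Dcn, decorin, which binds fibrils and limits their width, rose by 0.47 ± 0.08 in mutant and 0.50 ± 0.08 in WT cells, and Aspn, asporin, fell by 0.52 ± 0.07 in mutant and 0.44 ± 0.07 in WT cells. Fn1, fibronectin, rose in WT cells by 0.23 ± 0.07, lost without WT vehicle library A (0.0726). Bgn, biglycan, rose by 0.17 ± 0.07 in both. The mutant call was lost without any 1 mutant library (log2 0.14 without vehicle library B to 0.21 without vehicle library A) and with no filter (0.0775). The WT call was lost without WT vehicle library A (log2 0.13) or doxorubicin library A (log2 0.13), and with only the 4 WT libraries fitted (0.0824). Tgfbi fell in WT cells by 0.42 ± 0.15. The Tgfbi call was lost without WT vehicle library B (log2 -0.32), doxorubicin library A (-0.42) or doxorubicin library B (-0.42), and with DESeq2 (adjusted p = 0.0832). All these p-values are adjusted over all rows.

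Of 9 collagen receptors, 4 rose and 1 fell in mutant cells, and 5 rose and none fell in WT cells. Ddr1, a receptor tyrosine kinase for collagen, rose by log2 1.44 ± 0.11 in mutant cells (adjusted p = 1.92e-10) and 1.47 ± 0.10 in WT cells (adjusted p = 8.61e-11). Itga10, a collagen-binding integrin chain, rose by 1.79 ± 0.58 in mutant and 1.69 ± 0.56 in WT cells on 112 counts in all, calls lost without mutant vehicle library A (adjusted p = 0.118) or doxorubicin library A (0.114), and without WT vehicle library A (0.103) or doxorubicin library A (0.331). Itga2, another such chain, was called in WT cells with only 55 counts over all libraries. The Itga2 call was lost without WT vehicle library B (log2 1.41) and with DESeq2 (adjusted p = 0.0632). Of 16 basement membrane partners, 6 rose and 1 fell in mutant cells, and 7 rose and 1 fell in WT cells. Nid2, which links laminin to type IV collagen, rose by 1.67 ± 0.12 in mutant and 1.42 ± 0.11 in WT cells, Agrn, a heparan sulfate proteoglycan, by 1.18 ± 0.09 in mutant and 1.12 ± 0.09 in WT cells, and Fbln1 in WT cells by 0.64 ± 0.14. Pxdn, the peroxidase that forms sulfilimine bonds in type IV collagen, fell by 0.75 ± 0.10 in mutant and 0.57 ± 0.10 in WT cells. Called between mutant and WT cells were 10 of the 74 tested genes with doxorubicin (4 higher and 6 lower) and 8 with vehicle (6 higher and 2 lower), against 7.67% of all rows with doxorubicin and 5.94% with vehicle. Of these calls, 8 of the 10 with doxorubicin and 4 of the 8 with vehicle were lost when some 1 of the 8 libraries was left out. Those of Dcn and Creb3l1 with doxorubicin were lost in all 8 such fits. Ogn, osteoglycin, which was lower in mutant cells, and Thbs2, thrombospondin 2, which was higher, held at both treatments, and Aspn (higher) and Nid2 (lower) with vehicle. The difference between the responses called none in any of the 7 lists.

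Across the 30 tested collagen genes, the response was weakly related to gene length in RefSeq, with no test. Spearman's rho was -0.212 in mutant and -0.058 in WT cells, over genes that share libraries. Over all rows with a length it was -0.057 in mutant and -0.050 in WT cells. The median length was 117.7 kb for genes that rose, 77.1 kb for those that fell and 114.5 kb for those not called in mutant cells. In WT cells it was 114.4 kb for genes that rose, 130.5 kb for those that fell and 110.0 kb for those not called.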

How the data were processed

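RNA of 8 libraries of mouse embryonic fibroblasts was measured by RNA-seq. The authors deposited raw counts per gene symbol, without normalization. The submitters' processing notes name Bowtie2, HTSeq and mm9, with no versions of the tools. The strand setting was not given in the sources used here, and the labels name both an RNA capture kit and 3′ sequencing. Samples were grouped by genotype and treatment from the labels.

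From these counts, edgeR 4.0.16 (R 4.3.3) fitted 1 coefficient per group to all 8 libraries (4 residual degrees of freedom) after TMM normalization, on rows with 10 or more counts in 2 or more libraries. The quasi-likelihood test gave log2 fold changes, with Benjamini-Hochberg adjustment of p over the 12296 rows and calls under 0.05. SE is the log2 fold change over the square root of F. CPM are TMM-scaled. The script was tested on simulated data. Alternatives were DESeq2 1.42.0, limma-voom (limma 3.58.1), DESeq2 size factors in edgeR, other filters, the 4 libraries compared alone, each library left out, and a replicate block. Total counts were 25482805 to 33285171 per library, and the biological coefficient of variation was 0.0636.

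Full values are given for the 8 tested members of highest mean CPM, up to 6 called members per direction and comparison with the largest change and a mean of 1 CPM or more, and the highest member of each class. For other lists, up to 3 called genes per direction by the WT response are named. Members outside this rule, such as Col9a3, Col19a1, Col4a1 and Col4a2, were named after their values were seen. The members and lists were chosen with earlier results of these data known. Gene positions, lengths and promoters are from RefSeq, and strands and exon overlaps from GENCODE M21, all on GRCm38 and matched by symbol. The counting used another build, from which no coordinates are given.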

Additional observations from a re-analysis of the deposited data

How the results depend on the processing

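Of 150 log2 fold changes of collagen genes (30 genes in 5 comparisons), 45 were called. Over 2465 recomputed values, 2404 kept their side of the threshold, 52 lost a call, 9 gained one and 0 called values reversed. Of the 2404, 83 were uncalled values that changed sign. Under every alternative run, 28 of the 45 calls held. The median over all rows moved by at most 0.0206 on the log2 scale. The filter at 5 CPM in 2 libraries left 7 collagen genes higher in the WT response (11 in the reported fit) and 1 higher in mutant cells with vehicle (2 reported), with fewer genes tested. Leaving out 1 library gave 8 to 10 higher and 4 to 7 lower in the mutant response, 9 to 11 higher and 5 to 7 lower in the WT response, 0 to 2 higher and 3 to 4 lower in mutant cells with doxorubicin, 0 to 3 higher and 2 to 4 lower in mutant cells with vehicle, and 0 to 0 for the difference between responses. In the mutant response, the smallest count of genes lower came without mutant vehicle library A. With doxorubicin, the genotype count was 2 higher without WT library B and 0 without mutant library B. With vehicle it was 0 higher without mutant library A or WT library B, 1 higher without mutant library B, and 2 lower without WT library B. DESeq2 called 9 higher and 5 lower in the mutant response, and 9 higher and 6 lower in the WT response. With the letters as a replicate block there were 10 higher and 7 lower in both responses, 1 higher and 3 lower in mutant cells with doxorubicin, 2 higher and 4 lower with vehicle, and 0 for the difference. Same-letter deviations correlated at -0.0429 to 0.0740 between groups, over all rows tested. Rows of few counts weigh as much as others there, so these values cannot decide whether the letters pair the libraries. The 97 called results of the cartilage and bone lists and of the 7 lists of collagen-related genes were recomputed 1638 times. In this alternative, chosen after seeing the data, 142 values lost the call, 0 reversed and 56 of the 97 results held throughout. Calls of the fibroblast, endothelial, epithelial, skeletal muscle, macrophage and neural lists were not recomputed, except for genes also in the 7 lists. The collagen share, an alternative also chosen after seeing the data, differed by 0.00229 to 0.0322 points between doxorubicin and vehicle and by -0.0533 to -0.0325 points between mutant and WT when 1 library was left out. The fit to only the 4 libraries compared was not run for the difference. With 2 libraries a group, genes under about 1 CPM had wide intervals.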
